A study of Homo sapiens with 13 samples.

Results

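The chemokine receptors of skin-homing T cells were followed here as 9 genes, CCR1, CCR2, CCR4, CCR6, CCR7, CCR8, CCR10, CXCR3 and CXCR4, taken by symbol from a table of 45744 genes. Each was present in the table, and 8 had enough counts to be tested. CCR6 had no count in any of the 13 libraries. RNA sequencing had been run on HuT78, a T cell line established from a patient with Sézary syndrome, a cutaneous T cell lymphoma with malignant cells in the blood. The 4 groups were cells given chaetocin at 10 nM (replicates 1 to 4, n = 4), F5446 at 10 nM (replicates 2 to 4, n = 3), romidepsin at 1 µM (replicates 1 to 4, n = 4) or the vehicle DMSO (replicates 1 and 4, n = 2), each for 72 h. Chaetocin, a fungal metabolite, and F5446, known by its code name, are inhibitors of SUV39H1, a histone H3 lysine 9 methyltransferase, and romidepsin inhibits histone deacetylases. All groups share a single cell line, and nothing in the labels says that replicates were separate cultures, so a p-value reflects spread among these libraries, which may be technical. Levels are given as CPM, read counts relative to TMM-normalized library sizes, and a gene is called where its adjusted p is under 0.05.

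Chemokine receptors are G protein-coupled receptors that read gradients of small secreted chemokines and steer the cell through Gi proteins. CCR4 and CCR10 bind chemokines made by dermal vessels and keratinocytes and are classic receptors of T cells that enter skin, together with the sugar-modified selectin ligand CLA. CCR7 directs cells into lymph nodes, CXCR4 answers to CXCL12 in marrow and other stroma, and Sézary cells are known for carrying CCR4 and CCR7.

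No receptor was called with any compound. The HuT78 receptor profile was led by CCR7 and CXCR4, which together made up 67.9 to 80.0% of the counts of the 9 genes in each library. CCR8 had the smallest unadjusted p of the receptors with chaetocin and with F5446, with a mean of 16.0 ± 4.47 CPM with chaetocin, 14.1 ± 5.0 CPM with F5446 and 12.9 ± 2.24 CPM with romidepsin, against 8.55 ± 3.01 CPM with DMSO (SD, n = 4, 3, 4 and 2). CCR1 was at 44.3 ± 1.27 CPM with romidepsin and had its lowest mean, 25.5 ± 3.49 CPM, with chaetocin (SD, n = 4 each). Its 4 romidepsin libraries lay above all others, the lowest at 43.2 CPM against 41.8 CPM in DMSO replicate 1. Over all genes tested 0.29% had this pattern, which was singled out after the values were seen. The romidepsin log2 fold change of CCR1 over DMSO was 0.08 without DMSO replicate 4 and 0.78 without DMSO replicate 1. CCR4 was low in all groups, and CCR10 was close to the limit of detection.

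The libraries held 19901052 to 30816188 counts, and a count of 3 corresponded to 0.0939 to 0.150 CPM. T cell markers summed to 764 to 1061 CPM with chaetocin and 972 to 1091 CPM with F5446. The sums were 850.3 to 1071 CPM with romidepsin and 886 to 947 CPM with DMSO. None of the 12 genes was at 0 in all libraries, but LAT, CD28 and CD7 had only 4, 39 and 54 counts in all. NK cell markers summed to at most 0.594 CPM and myeloid markers to at most 4.88 CPM, with CD68 and S100A8 at 0. A marker at 0 counts is not read as absence here. Chaetocin replicate 3 stood apart, with 15.9% of its counts on mitochondrially encoded genes, against 5.22 to 12.7% in the other 12 libraries. Its TMM factor was 0.859, against 0.989 to 1.04 in the others, and a lower factor raises its CPM values. Values of several receptors also differed between libraries numbered 1 and 2 and those numbered 3 and 4, a division that had been seen in earlier work on these data. The labels do not say what a replicate number stands for.

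Promoter sequences are shown for 5 receptors that span the range of levels, from the abundant CXCR4 to CCR6 at 0 counts. They run from 250 bases before to 50 bases after the annotated start on the gene's own strand, from RefSeq on GRCh38.p14, a later build than the one the counts were made on, and 6 of the 9 genes matched. In CXCR4, CCR1 and CCR6 the capitals mark CG dinucleotides, the bases at which cytosine methylation mostly occurs.
CXCR4, chr2:136118100-136118399, minus strand: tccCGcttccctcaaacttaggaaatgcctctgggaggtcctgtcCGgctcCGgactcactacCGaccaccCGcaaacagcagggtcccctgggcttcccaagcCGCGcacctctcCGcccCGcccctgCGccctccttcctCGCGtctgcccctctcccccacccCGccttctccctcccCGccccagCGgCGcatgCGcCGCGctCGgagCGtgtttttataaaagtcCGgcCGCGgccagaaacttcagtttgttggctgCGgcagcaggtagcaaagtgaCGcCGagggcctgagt
CCR1, chr3:46208264-46208563, minus strand: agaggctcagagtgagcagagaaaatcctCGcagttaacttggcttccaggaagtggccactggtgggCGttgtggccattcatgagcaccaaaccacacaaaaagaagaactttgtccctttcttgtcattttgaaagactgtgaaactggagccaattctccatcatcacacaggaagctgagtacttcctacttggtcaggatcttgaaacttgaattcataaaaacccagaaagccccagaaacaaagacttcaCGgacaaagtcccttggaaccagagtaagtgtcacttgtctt
CCR6, chr6:167111545-167111844, plus strand: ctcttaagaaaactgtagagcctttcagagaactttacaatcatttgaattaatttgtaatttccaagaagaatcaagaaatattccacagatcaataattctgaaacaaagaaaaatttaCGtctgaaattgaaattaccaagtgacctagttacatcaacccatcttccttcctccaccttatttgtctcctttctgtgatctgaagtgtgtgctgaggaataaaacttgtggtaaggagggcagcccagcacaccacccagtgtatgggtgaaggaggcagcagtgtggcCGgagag
In CCR4 the capitals mark AGATAA, a form of the motif bound by GATA factors, and in CCR2 they mark TGACTCA, a form of the AP-1 motif.
CCR4, chr3:32951394-32951693, plus strand: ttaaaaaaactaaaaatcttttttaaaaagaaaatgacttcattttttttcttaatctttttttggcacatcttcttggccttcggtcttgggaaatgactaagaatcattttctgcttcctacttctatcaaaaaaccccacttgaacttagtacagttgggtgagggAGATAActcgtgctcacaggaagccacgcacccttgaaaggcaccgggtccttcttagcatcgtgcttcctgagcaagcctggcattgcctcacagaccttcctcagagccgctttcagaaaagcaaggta
CCR2, chr3:46353861-46354160, plus strand: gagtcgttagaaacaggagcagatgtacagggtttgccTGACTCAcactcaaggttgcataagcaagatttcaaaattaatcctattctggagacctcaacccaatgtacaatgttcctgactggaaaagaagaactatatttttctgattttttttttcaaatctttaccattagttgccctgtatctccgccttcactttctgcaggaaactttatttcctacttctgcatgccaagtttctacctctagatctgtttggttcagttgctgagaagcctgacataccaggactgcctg
The CXCR4 promoter shown held 27 CG dinucleotides and was 66.7% G or C, where 71.8% of 35114 promoters of that length had fewer CG. The other promoters shown held few, with 3 in CCR1, 2 in CCR2, 6 in CCR4 and 2 in CCR6, against a median of 14 over all promoters. CXCR3, whose promoter is not shown, held 1. AGATAA and TGACTCA were searched on both strands in all 6 genes, and neither overlaps the other. AGATAA was found in CCR4 and in none of the other 5, beginning 81 bases before the start, and 10.3% of all promoters hold it. TGACTCA was found in CCR2 and in none of the other 5, beginning 212 bases before the start, and 4.95% of all promoters hold it. For CCR6 and CXCR4, which each have 3 annotated starts in the table, the first entry is the one shown. The other entries held 14 and 9 CG in CXCR4 and 11 and 3 CG in CCR6, so the counts depend on the start that is taken.

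Levels between genes can be compared only per length, and values of CPM per kb of exon were computed from GENCODE 29 exon lengths. On that scale the mean over the 13 libraries was 62.3 for CCR7 and 53.3 for CXCR4. CCR1 followed at 12.7, CCR8 at 10.2, CXCR3 at 9.06 and CCR2 at 6.68 CPM per kb. CCR4 was at 1.75 and CCR10 at 0.205 CPM per kb. The skin-homing receptors CCR4 and CCR10 were the lowest of the detected genes, and the lymph node receptor CCR7 and CXCR4 the highest. This ranks the counts as listed. CCR10 shares 31.3% of its exon bases with other genes, and how fully each gene was counted was not tested.

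**Figure D1:**
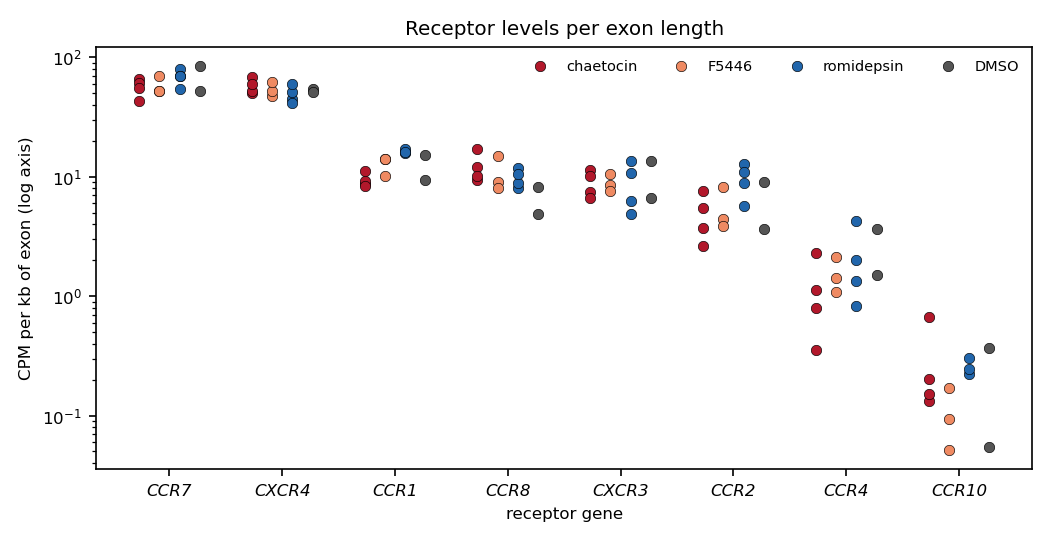
CPM per kb of exon (log axis) of the 8 detected receptors, ordered by their mean over the 13 libraries, with a point per library, coloured by group. CCR7 (mean 62.3) and CXCR4 (53.3) sit highest and CCR10 (0.205) lowest, and the romidepsin library with no CCR10 count cannot be drawn on the log axis.

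CCR4 (ENSG00000183813, chromosome 3), the receptor for CCL17 and CCL22 on skin-homing and Th2 cells and the target of the antibody mogamulizumab, was at 7.13, 2.47, 1.10 and 3.50 CPM with chaetocin. It was at 4.41, 3.32 and 6.53 CPM with F5446, and at 13.1, 6.15, 4.12 and 2.55 CPM with romidepsin, against 11.3 and 4.69 CPM with DMSO. The chaetocin and DMSO libraries overlapped, and replicate 1 was the highest library in each group that has one. The fitted log2 fold change over DMSO was -1.17 with chaetocin (95% interval -2.56 to 0.23), -0.75 with F5446 (-2.24 to 0.74) and -0.30 with romidepsin (-1.71 to 1.11). None was called by edgeR's quasi-likelihood test (adjusted p = 1 in each). Without chaetocin replicate 3, the lowest library at 1.10 CPM, the chaetocin value was -0.87. Without chaetocin replicate 1 it was -1.75, without DMSO replicate 4 it was -1.66 and without DMSO replicate 1 it was -0.39, so its size depends on single libraries of both groups. The order of means was DMSO, romidepsin, F5446 and chaetocin, and each neighbouring pair overlapped. Among the genes tested, 98.8% had a smaller spread than CCR4 relative to the trend at their level.

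CCR8 (ENSG00000179934, chromosome 3), the receptor for CCL1 on skin-resident memory, Th2 and regulatory T cells, was at 16.0, 22.3, 12.3 and 13.4 CPM with chaetocin. The F5446 libraries had 19.8, 11.8 and 10.6 CPM and the romidepsin libraries 10.5, 11.6, 15.5 and 13.8 CPM, against 10.7 and 6.43 CPM with DMSO. All 4 chaetocin libraries lay above both DMSO libraries, as did 2 of 3 with F5446 and 3 of 4 with romidepsin. With chaetocin CCR8 was thus 1 of 8 tested receptors higher with no overlap, where 5.22% of all 17252 genes tested were, and no receptor was lower with no overlap (6.09% of all genes). With F5446 no receptor was apart from DMSO in either direction, where 9.44% of genes were higher and 9.12% lower. The log2 fold change over DMSO was 0.91 with chaetocin (95% interval 0.27 to 1.55), 0.72 with F5446 (0.06 to 1.38) and 0.59 with romidepsin (-0.04 to 1.23). None was called, with an adjusted p of 1 in each comparison by edgeR over all genes and an unadjusted p of 0.00769, 0.0347 and 0.0657 for the 3 compounds in that order.

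Within each set of replicate numbers, CCR8 with chaetocin differed from DMSO by a log2 value of 0.81 among numbers 1 and 2 and of 0.95 among numbers 3 and 4. With F5446 these values were 0.86 and 0.76. With romidepsin they were 0.05 and 1.13, with the larger value among numbers 3 and 4. Each set holds 1 DMSO library, and numbers 1 and 2 hold only 1 F5446 library. Without DMSO replicate 4, the lowest library at 6.43 CPM, the chaetocin value was 0.59, and without DMSO replicate 1 it was 1.32. Without chaetocin replicate 3 it was 1.01. The F5446 value was 0.39 without F5446 replicate 2, 0.40 without DMSO replicate 4 and 1.12 without DMSO replicate 1. The romidepsin value was 0.27 without DMSO replicate 4 and 1.00 without DMSO replicate 1. Between chaetocin and F5446 the CCR8 difference was 0.19 (-0.35 to 0.72).

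CCR10 (ENSG00000184451, chromosome 17), the receptor for the keratinocyte chemokine CCL27 and for CCL28, had 8, 17, 8 and 45 counts with chaetocin. It had 4, 12 and 5 counts with F5446, and 13, 16, 20 and 0 counts with romidepsin, against 3 and 20 counts with DMSO. The groups overlapped, and 1 chaetocin library held the highest count. The log2 fold changes over DMSO had intervals several units wide, at 0.45 with chaetocin (-2.28 to 3.18), -1.0 with F5446 (-3.83 to 1.84) and -0.13 with romidepsin (-2.81 to 2.56), which allow large differences of either sign. On GENCODE 29, 31.3% of its exon bases lie opposite exons of CNTNAP1 and AC100793.2, and whether counting used strand is not given in the sources used here.

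CCR6 (ENSG00000112486, chromosome 6), the receptor for CCL20 on Th17 cells, was at 0 counts in all 13 libraries, which allows at most 0.0939 to 0.150 CPM per library. On GENCODE 29, 69.2% of its 4346 exon bases are shared on the same strand with Z94721.2, which had 0 to 22 counts per library. Among protein-coding genes that share most but not nearly all of their bases on the same strand, 39.6% were at 0 in all libraries, against 15.0% of those that share none. The part of this sharing in the zero of CCR6 was not tested, and the zero does not show that the gene is silent.

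**Figure D2:**
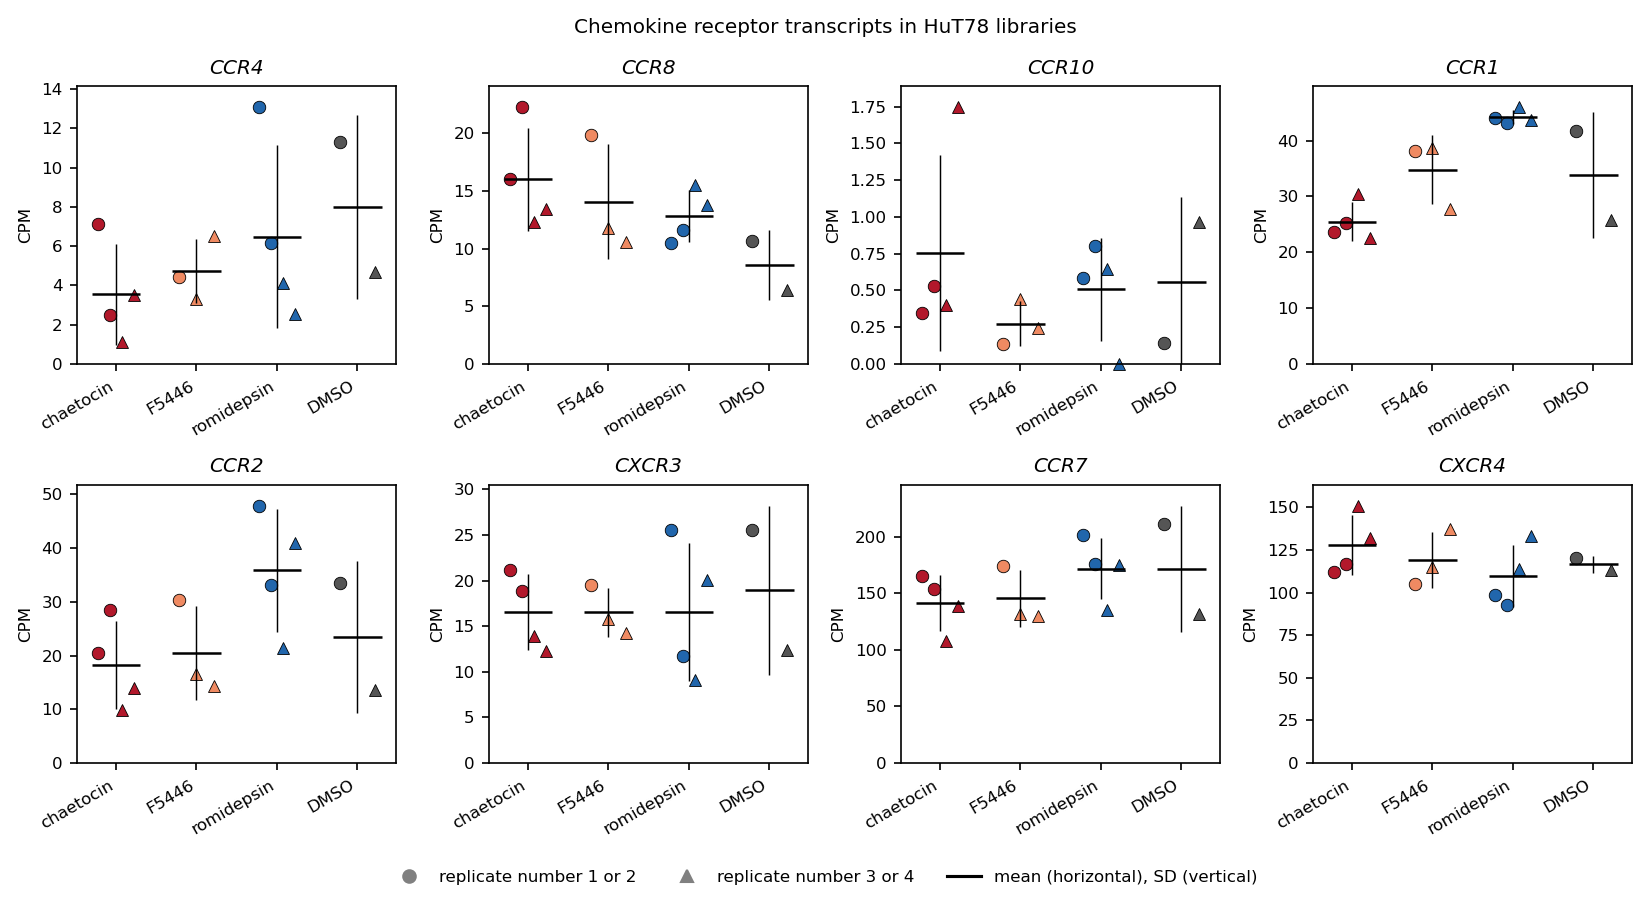
CPM of the 8 detected receptors by group, with a point per library, circles for replicate numbers 1 and 2 and triangles for 3 and 4, the mean as a horizontal line and the SD as a vertical line cut at 0. The 4 chaetocin libraries of CCR8 sit above both DMSO libraries, and the 4 romidepsin libraries of CCR1 sit above the other 9 libraries. Over all genes tested these patterns held for 5.22% and 0.29%.

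CCR1 (ENSG00000163823, chromosome 3), a receptor for CCL3, CCL5 and other inflammatory chemokines, was at 23.7, 25.2, 30.5 and 22.6 CPM with chaetocin. The F5446 libraries had 38.1, 38.6 and 27.7 CPM and the romidepsin libraries 44.1, 43.2, 46.1 and 43.7 CPM, against 41.8 and 25.8 CPM with DMSO. All 4 romidepsin libraries lay above the highest of the other 9 libraries, 41.8 CPM in DMSO replicate 1, and 3 of 4 chaetocin libraries lay below both DMSO libraries. Over all genes tested 0.29% had every romidepsin library above every other library, a pattern singled out after the CCR1 values were seen and set beside the other compounds as a description only. CCR1 was 1 of 8 receptors higher with romidepsin with no overlap, where 5.34% of all genes were, and none was lower with no overlap (4.98% of all genes). The log2 fold change of romidepsin over DMSO was 0.39 (95% interval -0.02 to 0.80), and that of chaetocin over DMSO was -0.41 (-0.81 to -0.01). Neither was called by edgeR (adjusted p = 1, unadjusted p = 0.0640 with romidepsin and 0.0473 with chaetocin). The F5446 value was 0.04 (-0.39 to 0.47).

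The DMSO library that was used set the size of the CCR1 differences. Without DMSO replicate 1 the chaetocin value was -0.02 and the romidepsin value 0.78. Without DMSO replicate 4 they were -0.72 and 0.08. The comparison of chaetocin with F5446, at the same dose and time, does not use DMSO, and CCR1 was lower with chaetocin there, with a log2 fold change of -0.45 (95% interval -0.81 to -0.09, unadjusted p = 0.0160, adjusted p = 0.999 by edgeR). Within replicate numbers 1 and 2, which hold only 1 F5446 library, it was -0.63, and within 3 and 4 it was -0.32. The libraries of the compounds overlapped, since chaetocin replicate 3 at 30.5 CPM exceeded F5446 replicate 4 at 27.7 CPM.

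CCR2 (ENSG00000121807, chromosome 3), the receptor for CCL2 best known from monocytes and memory T cells, was at 20.5, 28.5, 9.87 and 14.0 CPM with chaetocin and at 30.4, 16.5 and 14.4 CPM with F5446. It was at 47.9, 33.1, 21.4 and 40.9 CPM with romidepsin, against 33.5 and 13.5 CPM with DMSO. The groups overlapped, with the 2 highest of all libraries treated with romidepsin. The log2 fold change over DMSO was -0.36 with chaetocin (-1.41 to 0.69), -0.20 with F5446 (-1.31 to 0.91) and 0.61 with romidepsin (-0.47 to 1.69). Among the genes tested, 99.3% had a smaller spread relative to the trend at their level, and the intervals are wide. Without DMSO replicate 1 the chaetocin and F5446 values turned to 0.44 and 0.59 and the romidepsin value was 1.41, and without DMSO replicate 4 the 3 values were -0.87, -0.71 and 0.0961.

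CXCR3 (ENSG00000186810, chromosome X), the Th1 receptor for CXCL9, CXCL10 and CXCL11, was at 21.1, 18.9, 13.9 and 12.3 CPM with chaetocin and at 19.5, 15.8 and 14.2 CPM with F5446. It was at 25.5, 11.7, 9.08 and 20.1 CPM with romidepsin, against 25.5 and 12.4 CPM with DMSO. The 4 means lay close together, between 16.5 and 19.0 CPM, with all groups overlapping. Its spread relative to the trend at its level was larger than that of 96.0% of the genes tested. The log2 fold change over DMSO was -0.20 with chaetocin (-0.97 to 0.58), -0.20 with F5446 (-1.02 to 0.61) and -0.19 with romidepsin (-0.96 to 0.58), intervals that allow differences of either sign. Without DMSO replicate 1 all 3 turned, to 0.42, 0.41 and 0.43.

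CCR7 (ENSG00000126353, chromosome 17), which answers to CCL19 and CCL21 and marks central memory cells, was at 165, 154, 108 and 139 CPM with chaetocin and at 174, 132 and 130.1 CPM with F5446. It was at 201, 176, 135 and 175 CPM with romidepsin, against 211 and 132 CPM with DMSO. DMSO replicate 1 was the highest library and chaetocin replicate 3 the lowest, and all groups overlapped. The log2 fold change over DMSO was -0.27 with chaetocin (-0.69 to 0.14), -0.23 with F5446 (-0.67 to 0.20) and 0.01 with romidepsin (-0.41 to 0.42). Without chaetocin replicate 3 the chaetocin value was -0.16. It was -0.57 without DMSO replicate 4, and without DMSO replicate 1 it turned to 0.11.

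CXCR4 (ENSG00000121966, chromosome 2), the receptor for CXCL12, varied least, with a coefficient of variation of 13.6% over the 13 libraries. It was at 112, 117, 151 and 132 CPM with chaetocin, 105, 115 and 137 CPM with F5446 and 98.7, 92.6, 114 and 133 CPM with romidepsin, against 120.0 and 113 CPM with DMSO. The groups overlapped, with chaetocin replicate 3 the highest. The log2 fold change over DMSO was 0.13 with chaetocin (-0.21 to 0.47), 0.03 with F5446 (-0.33 to 0.39) and -0.09 with romidepsin (-0.43 to 0.25). These were the narrowest intervals among the receptors. The chaetocin value was 0.0459 without chaetocin replicate 3.

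**Figure D3:**
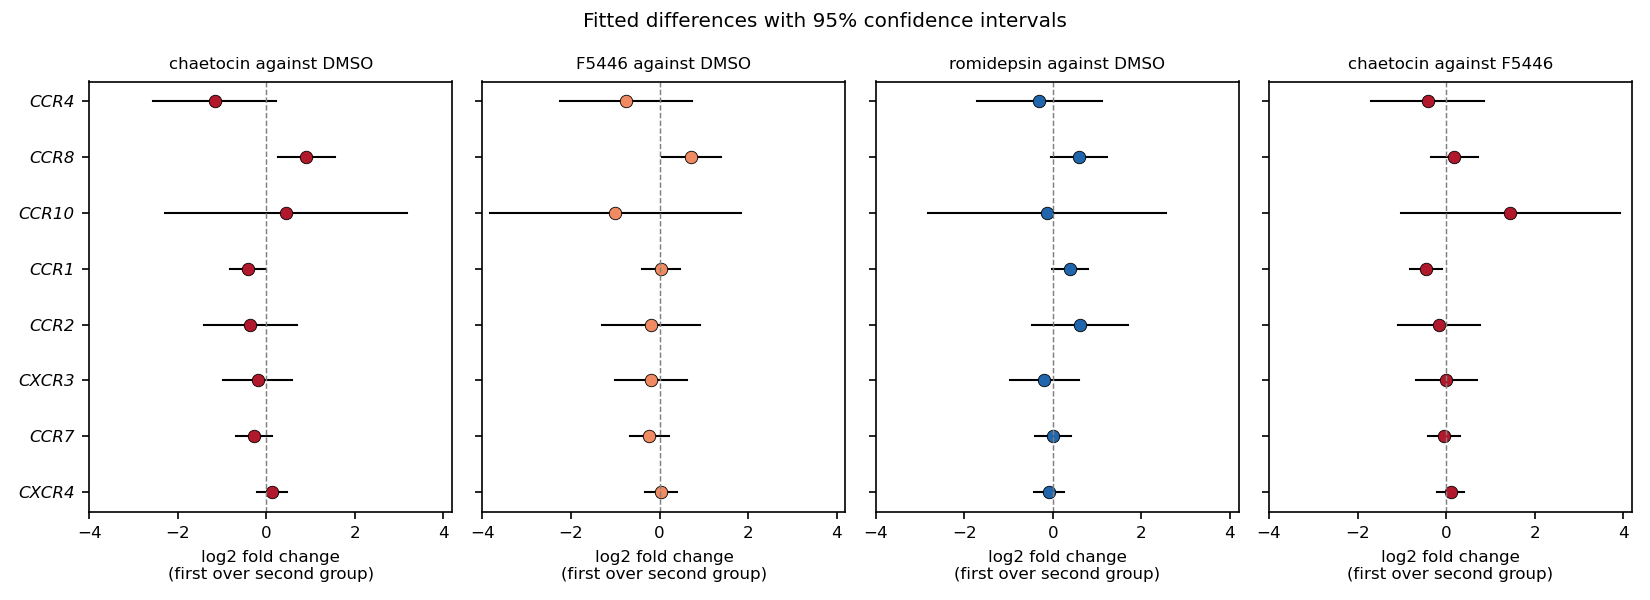
Log2 fold changes (first group over second) of the 8 tested receptors in the 4 comparisons, with 95% confidence intervals from the edgeR fit. CCR8 lies to the right of 0 in the 3 DMSO comparisons (0.91, 0.72 and 0.59), and the interval of CCR10 is the widest in each panel.

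Over the 8 tested receptors, none was called against DMSO, where the share called among all 17252 genes was 0% in each comparison. With chaetocin 3 had the higher and 5 the lower mean, with a median log2 fold change of -0.23, against 0.01 over all genes. With F5446 these counts were 3 and 5, with a median of -0.20 against 0.01, and with romidepsin 4 and 4, with a median of -0.04 against 0.01. At an unadjusted p under 0.05, 2 receptors (CCR1 and CCR8) passed with chaetocin, 1 (CCR8) with F5446 and none with romidepsin. Over all genes the shares at that threshold were 4.07%, 2.48% and 2.82% for chaetocin, F5446 and romidepsin. DESeq2 called 10, 1 and 1 of all genes in these comparisons, and none of the receptors. The 3 comparisons share the same DMSO libraries, so their values are not independent of each other.

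Chaetocin and F5446, matched in dose and duration, were the only pair of compounds tested against each other. Of the 8 receptors, 4 had the higher and 4 the lower mean with chaetocin, with a median log2 fold change of -0.02 against -0.00 over all genes, and none was called (0% of all genes). Only CCR1 had an unadjusted p under 0.05, where 3.4% of all genes did. No receptor was apart between these compounds, where 2.28% of genes were higher and 3.11% lower with chaetocin with no overlap. The intervals for CCR7 (-0.41 to 0.33) and CXCR4 (-0.20 to 0.40) were narrow, and those for CCR4 (-1.69 to 0.86), CCR2 (-1.09 to 0.77) and CCR10 (-1.03 to 3.92) allowed large differences of either sign. No statement that the compounds act alike on these genes can be made from a p over the threshold. Romidepsin was given at another dose, and where its values are set beside theirs this is a description without a test. The titles of the 3 libraries all read F5446 and were followed, although their treatment tags give code names with differing final digits.

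Some receptors varied together across libraries. CCR2 and CCR7 had a Pearson correlation of 0.91 over the 13 libraries, given as a description, since both genes were read from the same libraries at the same depth. It was 0.67 among the 6 libraries numbered 1 and 2 and 0.92 among the 7 numbered 3 and 4. CCR4 and CCR7 had 0.70 over all libraries, 0.88 in numbers 1 and 2 and 0.30 in numbers 3 and 4. For CCR7 and CXCR3 the values were 0.70, 0.48 and 0.44 in that order. CCR1 and CCR2 had 0.62 over all libraries, 0.81 in numbers 1 and 2 and 0.69 in numbers 3 and 4. For CCR7 and CCR8 they were 0.13, -0.85 and 0.23. The pairs given are only some of those possible and carry no test. CCR4 and CCR8 had -0.30 over all libraries, -0.90 in numbers 1 and 2 and -0.32 in numbers 3 and 4. CCR7 ranged from 154 to 211 CPM (median 175) in libraries numbered 1 and 2, and from 108 to 175 CPM (median 132) in those numbered 3 and 4. CXCR4 lay the other way, from 92.6 to 120.0 CPM (median 109) in numbers 1 and 2, and from 113 to 151 CPM (median 132) in numbers 3 and 4. The ratio of CCR7 to CXCR4 counts was 1.31 to 2.04 in numbers 1 and 2 and 0.716 to 1.32 in numbers 3 and 4. Over all libraries the groups overlapped in this ratio. Within each number set the romidepsin libraries had the highest ratios. They were 2.04 and 1.90 against at most 1.75 in numbers 1 and 2. In numbers 3 and 4 they were 1.19 and 1.32 against at most 1.16. This order was read off after the values were seen and was not tested. The ratio of CCR7 to CCR8 counts was 6.90 to 10.3 with chaetocin, 8.80 to 12.3 with F5446 and 8.72 to 19.1 with romidepsin, against 19.7 and 20.5 with DMSO, a ratio chosen after its values were seen.

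**Figure D4:**
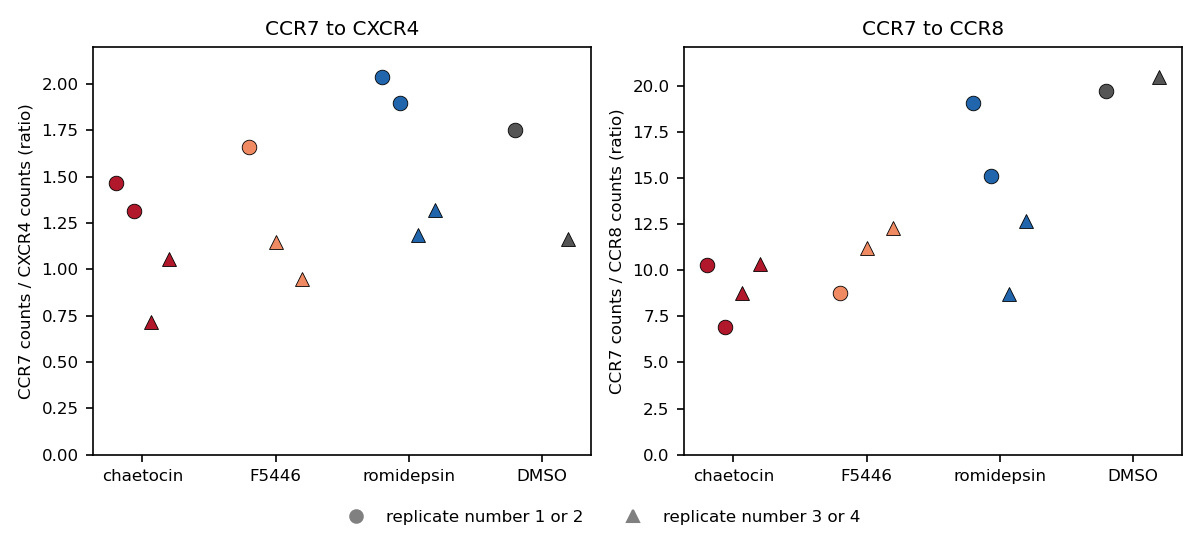
Ratios of CCR7 to CXCR4 counts (left) and CCR7 to CCR8 counts (right) by group, with a point per library, circles for replicate numbers 1 and 2 and triangles for 3 and 4. On the left the circles lie at 1.31 to 2.04 and the triangles at 0.716 to 1.32. On the right the DMSO libraries have the highest values, 19.7 and 20.5, with romidepsin replicate 1 next at 19.1. The ratio on the right was chosen after its values were seen.

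**Figure D5:**
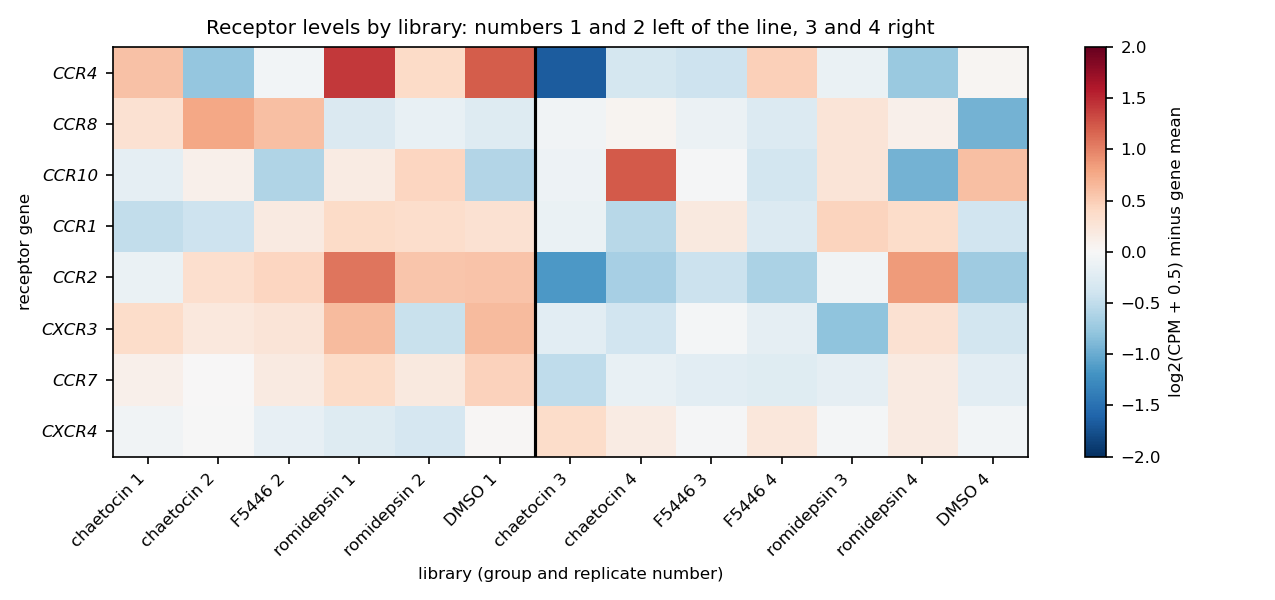
Log2(CPM + 0.5) of each receptor minus its mean over the 13 libraries, with libraries in columns (numbers 1 and 2 left of the line) and genes in rows. CCR7 and CCR2 run mostly above their means on the left and below on the right, and CCR8 is lowest in DMSO replicate 4.

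Among 10095 genes averaging 5 CPM or more, the genes whose log2 CPM had the highest correlation with CCR7 across the 13 libraries were C1QTNF7 (0.944), DNAJC5B (0.944) and UCHL5 (0.914). For CXCR4 they were TMEM11 (0.919), SLC29A4 (0.909) and IFITM2 (0.908), and for CCR1 they were FASLG (0.929), FLOT1 (0.924) and BRDT (0.911). These are the highest of many correlations over few libraries and carry no test.

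The wider chemokine system around these receptors was counted from lists written from general knowledge. Of 12 other chemokine receptors 4 were tested, CCR3, CX3CR1, CCRL2 and the scavenger ACKR2, and none was called. CCRL2, which presents chemerin, averaged 5.88 ± 1.27 CPM with chaetocin, 5.46 ± 1.5 CPM with F5446 and 7.14 ± 2.02 CPM with romidepsin, against 3.89 ± 2.36 CPM with DMSO (SD, n = 4, 3, 4 and 2). Their median log2 fold change over DMSO was 0.70 with chaetocin, 0.28 with F5446 and 0.87 with romidepsin, where all genes had 0.01, and the 4 include low counts.

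Of 20 ligands 5 were tested and 8 were at 0 in all libraries, among them CCL17, CCL19, CCL27 and CXCL12, and none was called. CCL5, a ligand of CCR1 released by activated T cells, was the most abundant, at 367 ± 137 CPM with chaetocin, 309 ± 27.4 CPM with F5446 and 336 ± 76.8 CPM with romidepsin, against 270.5 ± 13.4 CPM with DMSO (SD, n = 4, 3, 4 and 2). CXCL10, a ligand of CXCR3, averaged 16.6 CPM over all libraries, CCL28, a ligand of CCR10, 4.73 CPM and CCL20, the ligand of CCR6, 4.46 CPM. HuT78 thus held transcripts for ligands of CCR1 and CXCR3 and, at lower levels, of CCR10 and CCR6. CCL1, the ligand of CCR8, had 58 counts over all libraries. CXCL12, the ligand of CXCR4, had no count, which is not read as absence.

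Of 28 genes of receptor signalling and desensitization all were tested and none was called. With chaetocin 17 had the higher and 11 the lower mean (median log2 fold change 0.03), with F5446 20 and 8 (0.09) and with romidepsin 17 and 11 (0.04), all against a median of 0.01 over all genes. The smallest p was that of ARRB2, an arrestin that uncouples receptors, with chaetocin, at 176 ± 31.1 CPM against 135 ± 9.85 CPM with DMSO (SD, n = 4 and 2). With F5446 it was that of GRK2, a receptor kinase, at 701 ± 108 CPM against 480.5 ± 132 CPM with DMSO (SD, n = 3 and 2). Neither passed after adjustment by edgeR (adjusted p = 1 for both).

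Of 12 transcription factors linked to receptor expression 10 were tested and none was called. GATA3, which drives the Th2 programme in which CCR4 and CCR8 are expressed, averaged 1012 ± 477 CPM with chaetocin, 820.5 ± 142 CPM with F5446 and 742 ± 212 CPM with romidepsin, against 643 ± 83.8 CPM with DMSO (SD, n = 4, 3, 4 and 2). RUNX3 averaged 416 and IRF4 217 CPM over all libraries. The smallest p with romidepsin was that of PRDM1, encoding Blimp-1, at 57.7 ± 6.66 CPM against 39.2 ± 1.32 CPM with DMSO (SD, n = 4 and 2), a log2 fold change of 0.56 (0.19 to 0.93) with an adjusted p of 1 by edgeR.

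Of 10 genes that build the skin-homing selectin ligand 9 were tested and none was called. FUT7, the fucosyltransferase that completes CLA, was listed at 0 counts in all libraries. So was the lysosomal gene CD68, and LAT, an adaptor that T cells need for signalling, had 4 counts in all, so a zero in this table is not read as absence. GLG1, a Golgi glycoprotein that binds E-selectin, had the smallest p with chaetocin, at 225 ± 29.5 CPM against 337 ± 20.9 CPM with DMSO (SD, n = 4 and 2), a log2 fold change of -0.58 (-0.88 to -0.28) with an adjusted p of 0.636 by edgeR. SELPLG, the core protein that carries CLA, was at 110.3 ± 9.44 CPM with chaetocin, 106 ± 10.8 CPM with F5446 and 127 ± 12.9 CPM with romidepsin, against 105 ± 3.67 CPM with DMSO (SD, n = 4, 3, 4 and 2).

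A difference in these bulk libraries cannot tell fewer cells that carry a transcript from less transcript per cell. B cell markers summed to 40.2 to 97.2 CPM with chaetocin, 53.0 to 82.3 CPM with F5446 and 39.6 to 80.5 CPM with romidepsin, against 45.2 to 63.8 CPM with DMSO. Fibroblast markers summed to 29.3 to 54.3 CPM and keratinocyte markers to 31.3 to 72.9 CPM over all libraries, with KRT15 and DSG3 at 0. The part of these in the receptor values was not tested.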

How the data were processed

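Whole-number counts of 13 RNA sequencing libraries were analysed as deposited. The authors used bcl2fastq 2.20.0.422, cutadapt 1.8.1 for adapters and HTSeq 0.6.1 for counts per gene, with hg19 as the build, per the submitters' processing notes. Which aligner, strand option and gene annotation were used is not given in the sources used here. Per the labels, cells were trypsinized, RNA was treated with DNase and libraries were made with a kit for human FFPE RNA. All 13 sample columns were used.

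Genes were kept by edgeR's filterByExpr, which left 17252 of 45744. One fit over all libraries had group as its single term (edgeR 4.0.16, R 4.3.3, TMM), followed by a robust two-sided quasi-likelihood test, with Benjamini-Hochberg adjustment over all genes tested within each comparison and a threshold of 0.05. DESeq2 1.42.0, limma-voom (limma 3.58.1), RLE size factors, no filter, a mean of at least 5 CPM, only the 2 groups compared, a replicate block, a term that splits replicate numbers 1 and 2 from 3 and 4, and each library left out in turn were the alternatives. Values within number sets are differences of log2(mean CPM + 0.5), and correlations used log2 CPM with a prior count of 2. The pipeline was tested on simulated data.

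Exon lengths and overlaps came from GENCODE 29 on GRCh38, another release than the authors', and promoters from RefSeq. The floor for a count of 0 is 3 counts in a library, and it covers counting error only. Python 3.11.15 and matplotlib 3.10.9 drew the figures. The receptors, gene lists and tests were chosen with earlier results of these data known. All 9 receptors were named, with every tested ligand allowed. Of each other list, the 3 genes of highest mean and the gene with the smallest p in each comparison (mean of at least 5 CPM) could be named, and the 3 genes nearest in pattern to each of the 3 most abundant receptors. ACKR2, FUT7, CD68, LAT, CD28, CD7 and the ligands at 0 were named after their values were seen. Same-numbered libraries did not count as pairs. Replicates of a group differed by 15.2 to 120.6 times the sampling noise (chi-square per degree of freedom), so none was treated as the same library deposited again. This does not show that they are separate cultures.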

Additional observations from a re-analysis of the deposited data

Results flagged for a closer look

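CCR10 in chaetocin replicate 4 was at 1.75 CPM (45 counts), and the next chaetocin library was at 0.532 CPM. The gap to the nearest of the others took 0.869 of the group's range, above Dixon's 95% critical value for 4 samples. Of 16 groups of 4 libraries examined this was the one that passed, and chance gives about 1 in 20 groups. Without that library the chaetocin log2 fold change over DMSO was -0.37, against 0.45 with it.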

How the results depend on the processing

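No receptor was called under any alternative, and 238 receptor values under other settings kept their direction and 13 turned, as did 383 and 33 with a library left out. CCR8 was higher than DMSO with each compound under all of them, at log2 values of 0.59 to 1.32 with chaetocin, 0.39 to 1.12 with F5446 and 0.27 to 1.00 with romidepsin when a library was left out, with a lowest adjusted p of 0.327 for chaetocin with the term for replicate numbers. Counts of all genes called, 0 as reported in each comparison, were for chaetocin over DMSO 10 with DESeq2, 1 with limma-voom, 9 with no filter, 10 with the replicate block and 7 with the number term, and 0 to 2 with a library left out (1 without chaetocin replicate 4, 2 without DMSO replicate 4). For F5446 over DMSO DESeq2 called 1. For romidepsin over DMSO the counts were 1 with DESeq2, 5 with no filter, 1 with the replicate block and 1 with the number term. For chaetocin over F5446 they were 2 with DESeq2, 9 with no filter, 11 with the replicate block and 5 with the number term. The cause was not tested.

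Log2 fold changes that turned their direction with the replicate block were, over DMSO, CXCR3 with chaetocin at 0.0907, CCR1 at -0.0209, CCR2 at 0.12, CCR4 at 0.27 and CXCR3 at 0.31 with F5446, and CCR4 at 0.18, CCR10 at 0.32 and CXCR3 at 0.0468 with romidepsin. Over F5446, CXCR3 with chaetocin was at -0.21 with the block, -0.0236 with limma-voom and -0.11 with the number term. With the number term CXCR4 with F5446 was at -0.0255 and CCR10 with romidepsin at 0.26 over DMSO. Libraries of different groups were also correlated after each gene's group mean was subtracted from its log2 CPM. These deviations correlated at 0.0362 to 0.222 over 15 same-numbered pairs, 8 of them over 0.1. By this measure 10 of 13 libraries correlated best with a library of their own number, a hint from the data only. As DMSO has 2 libraries, their deviations mirror each other.

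With a library left out, the log2 fold changes that turned ran as follows. With chaetocin over DMSO CCR2 ran from -0.87 to 0.44, CCR7 from -0.57 to 0.11, CCR10 from -0.37 to 2.36 and CXCR3 from -0.62 to 0.42. With F5446 over DMSO CCR1 ran from -0.26 to 0.42, CCR2 from -0.71 to 0.59, CCR4 from -1.25 to 0.00791, CCR7 from -0.53 to 0.14, CCR10 from -1.81 to 0.91, CXCR3 from -0.63 to 0.41 and CXCR4 from -0.0821 to 0.11. With romidepsin over DMSO CCR4 ran from -0.90 to 0.47, CCR7 from -0.29 to 0.39, CCR10 from -0.92 to 1.79 and CXCR3 from -0.62 to 0.43. With chaetocin over F5446 CCR2 ran from -0.47 to 0.24, CCR7 from -0.12 to 0.11, CCR8 from -0.0164 to 0.52 and CXCR3 from -0.13 to 0.14. A fit with 1 DMSO library assumes that it varies like the other groups. CCR10 could not be fitted with a mean of at least 5 CPM, and with 2 groups only it was not tested for F5446. In simulated data with these library sizes a 2-fold change was called in 30.9 to 45.8% of changed genes that passed the filter. A 4-fold change was called in 68.5 to 72.3% of such genes, over the 4 comparisons. The simulated libraries had no division by replicate number, and 100 genes were changed at each fold. Many differences of these sizes were missed even there, and the share in the real libraries may differ.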
